A study of Mus musculus with 41 samples.

Results

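The 10 mouse genes Fos, Fosb, Jun, Junb, Egr1, Klf10, Myc, Ier2, Ier3 and Dusp1 were followed at the levels of ribosome footprints and mRNA in tissues and cells in which the study targeted factors of translation-dependent mRNA quality control. They were chosen by name as immediate early genes, and all 10 were found among the 22438 genes of the footprint table and the 55385 genes of the RNA table, where they have 38 of 142552 transcripts. The study deleted Hbs1l or Pelo, which encode partner proteins that release ribosomes stalled on an mRNA, or Upf2, a core factor of nonsense-mediated decay (NMD), and measured ribosome-protected fragments (RPFs) in 30 libraries and polyadenylated RNA in 11 libraries. Whole E8.5 embryos were C57BL/6NJ, either Hbs1l -/- or wildtype, with 3 libraries each, and every embryo library was made from pooled embryos. Cerebella at P14 were C57BL/6J, Atoh-Cre;Hbs1l cKO or Atoh-Cre;Hbs1l +/+, with 3 mice each. In the cKO cerebella the floxed Hbs1l allele lay over a null allele, so that Cre under Atoh1 control removed it from granule cell precursors while the other cerebellar cells kept 1 copy. Primary mouse embryonic fibroblasts (MEFs) carried the tamoxifen-inducible CAG-Cre ER transgene in every group, controls included, and all of them were treated with tamoxifen. The MEF groups were Hbs1l cKO, Pelo cKO, Upf2 cKO and CAG-Cre ER alone. Footprints came from 3 libraries of each mutant beside 3 control libraries sequenced in the same batch, and RNA from 3 Hbs1l, 2 Pelo, 3 Upf2 and 3 control libraries. Each MEF culture came from a single embryo, and per the strain list of the study the conditional lines, MEF controls included, carried the B6J allele of the tRNA gene n-Tr20. The MEFs are named Hbs1l-/- and Pelo-/- MEFs below.

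Immediate early genes are transcribed within minutes of a growth factor, serum, stress or neuronal activity signal, without new protein synthesis, through transcription factors such as SRF that are already present. Most encode transcription factors that drive a later wave of genes, and several encode inhibitors that end the signal. Their mRNAs are short-lived, in many cases through AU-rich elements (AREs) of the 3′ untranslated region (3′ UTR) that recruit decay factors, so their levels respond quickly to changes in transcription, decay and translation.

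The members fall into 5 kinds. Fos, Fosb, Jun and Junb encode subunits of the AP-1 transcription factor, Egr1 and Klf10 encode zinc finger transcription factors, and Myc encodes a transcription factor of cell growth. Ier2 encodes a nuclear regulator and Ier3 a protein linked to cell survival. Dusp1 encodes a phosphatase that switches off MAP kinases. Gene identifiers are those of the deposited footprint table, and coordinates are those of the Gencode M21 annotation on GRCm38. The gene Fos (ENSMUSG00000021250.13) lies at chr12:85473890-85477273 on the plus strand and Fosb (ENSMUSG00000003545.3) at chr7:19302696-19310051 on the minus strand. Jun (ENSMUSG00000052684.4) lies at chr4:95049034-95052222 and Junb (ENSMUSG00000052837.6) at chr8:84974484-84978718, both on the minus strand and each with 1 exon in its leading transcript. Egr1 (ENSMUSG00000038418.7) lies at chr18:34859823-34864984 on the plus strand, Klf10 (ENSMUSG00000037465.10) at chr15:38291463-38300706 on the minus strand and Myc (ENSMUSG00000022346.15) at chr15:61985391-61990374 on the plus strand. Ier2 (ENSMUSG00000053560.5) is a gene of 1 exon at chr8:84661331-84662852 on the minus strand, Ier3 (ENSMUSG00000003541.6) has 2 exons at chr17:35821684-35822923 on the plus strand, and Dusp1 (ENSMUSG00000024190.7) spans chr17:26505590-26562128 on the minus strand. Annotated genes on the opposite strand overlap Jun (Junos), Junb (Prdx2) and Dusp1 (Ergic1 and Gm8225), and Gm50274 and Gm50275 overlap Dusp1 on its own strand, none of them in its coding bases.

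Exon number and AU-rich pentamers were read from the annotation, were not used to choose the genes and carry no test. The leading transcript of a gene was its protein-coding transcript with the highest TPM, a transcript's share of all transcripts, in control MEFs, and for Klf10 the 1 transcript described with its sequence in the paragraphs that follow was left out. The leading transcripts of the members had a median of 2.5 exons, against 9 among the 10184 leading transcripts with a gene model and at least 1 TPM. A gene model meant annotated coding bases, and exons whose summed length matched the transcript sequence. An annotated 3′ UTR was not required, and a transcript without one counts as holding no pentamer. At most 2 exons were found in 5 of 10 members and in 7.53% of all leading transcripts. The pentamer ATTTA, searched on the transcript strand and counted with overlaps, occurred in the 3′ UTR of 9 of 10 members, against 62.6% of all, and Ier2 was the exception. At least 3 copies occurred in 5 of 10 members, against 30.3% of all.

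To show what such an element looks like, 29 bases of the 3′ UTR of Fos and of Dusp1, both with 4 copies, are given 5′ to 3′ with overlapping ATTTA copies in capitals, read from the Gencode M21 transcripts of GRCm38. The capitals start at base 653 of the 815 bases of the 3′ UTR in the leading transcript of Fos, and at base 105 of the 690 bases in that of Dusp1.
Fos: tgtgttttcaATTTATTTAttaagatgga
Dusp1: gctggtccttATTTATTTAacacccccct

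A different sequence bears on the mRNA values of Klf10. The RNA table assigned between 99.31% and 99.83% of the estimated counts of Klf10 to 1 transcript of 326 bases, which holds a run of 33 A at bases 175 to 207 and is called the A-run transcript here. The bases leading into the run, with the first 15 A of it in capitals, are shown to identify it.
Klf10 A-run transcript: atcgagggcatgtgcAAAAAAAAAAAAAAA
The A-run transcript ranked 1 of 142552 transcripts by TPM in control MEFs and took 3.05% to 9.95% of all TPM in a library. Of 82 transcripts with an A run at least as long, it was the only one above 100 TPM, and the others had a median of 0.312 TPM. Footprints were counted per gene over its coding bases, not per transcript. Klf10 mRNA is therefore given with and without the A-run transcript, an alternative chosen after the data were seen.

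Total counts ranged from 2634480 to 7298812 in embryo libraries, from 10919139 to 22591768 in cerebellar libraries, from 5782990 to 25607974 in MEF footprint libraries and from 22713643 to 86425762 in RNA libraries. Values are CPM, the counts of a gene per 1e6 counts of its library. Those of the members and targeted genes are scaled by TMM factors, within each comparison for footprints and over all RNA libraries together for RNA. Densities per kilobase and the levels of marker and heat shock genes are CPM without TMM factors. For RNA these levels leave out the A-run transcript of Klf10. Tests are the quasi-likelihood F test of edgeR, with p-values adjusted by the Benjamini-Hochberg method over all genes tested and a threshold of 0.05. The targeted gene was checked against the labels. Hbs1l footprints fell by 4.15 on the log2 scale in Hbs1l-/- MEFs (adjusted p = 1.6e-08). They fell by 3.60 in Hbs1l -/- embryos (adjusted p = 9.8e-05) and fell by 1.50 in the cKO cerebella (adjusted p = 0.013, lost without any library but cKO replicate 2 or control replicate 3). Pelo footprints fell by 3.78 in Pelo-/- MEFs (adjusted p = 1.6e-07). Upf2 went against its label, with 113 to 119 CPM of footprints in the libraries labelled Upf2 and 49.2 to 58.3 CPM in their controls, a log2 fold change of 1.09 (adjusted p = 3.1e-06). Its estimated RNA counts rose as well, by 1.33 (adjusted p = 0.0033). Counts outside the deleted part of a gene check nothing, so these libraries are called "labelled Upf2" throughout. The study has other evidence for the deletion. It found NMD-annotated and intron-retaining transcripts among those raised in its Upf2-/- MEFs, a build-up it described as specific to them. That evidence was not retested here. Marker genes followed the labelled tissues. The summed level of 8 fibroblast markers was 43506 to 52101 CPM in MEF footprint libraries and at most 5103 CPM in footprint libraries of embryo and cerebellum, and 7 granule neuron markers summed to 3483 to 5668 CPM in cerebella and at most 95 CPM in the other footprint libraries. Control MEF footprint libraries of the same number in the 3 batches had a chi-square of 1.11 to 1.19 per gene, where counting noise alone gives about 1, and those of different numbers had 4.04 to 11.6. The 3 MEF comparisons of footprints therefore rest on the same control material, as the 3 comparisons of RNA share their control libraries.

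In control samples the members covered a wide range of footprint levels, given here as CPM per kilobase of coding sequence (mean ± SD, n = 3, with the 3 batches of control MEFs averaged by replicate). MEFs gave the highest level for 8 of 10 members. Ier3 led there at 364 ± 35.4, above 98.1% of genes with footprints, ahead of Junb at 166 ± 2.38, Jun at 153 ± 11.5, Myc at 116 ± 6.56 and Dusp1 at 115 ± 12.7. Egr1 followed at 92.4 ± 25.9, Ier2 at 65.4 ± 4.1, Klf10 at 44.3 ± 1.08, Fos at 17.9 ± 2.06 and Fosb at 4.07 ± 0.397. The SDs of the neighbours Junb and Jun, Myc and Dusp1, and Dusp1 and Egr1, and Egr1 and Ier2 overlap, so those pairs are unordered.

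In the cerebellum the order was another one. Jun had the highest mean at 71.7 ± 8.79, and Ier2, Dusp1 and Fos lay together at 54.7 ± 5.38, 54.1 ± 9.73 and 54 ± 14.5 CPM per kilobase. The SDs of Jun and of Dusp1 and Fos overlap, so Jun is unordered with these 2. Fos was the only member whose footprint level was highest in the cerebellum. In E8.5 embryos Ier2 led at 144 ± 15, followed by Myc at 105 ± 5.84, while Ier3 was at 6.74 ± 1.21, Fos at 2.44 ± 0.387 and Egr1 at 1.52 ± 0.635. Ier2 was the only member with its highest level in embryos. Across the 3 sources the highest level was 60.8 times the lowest for Egr1, 54 times for Ier3 and 24.2 times for Fosb. The ratio of Fosb rests on 0 to 2 counts in each wildtype embryo library. The highest level was 22.1 times the lowest for Fos, 17 times for Myc and 1.63 times for Klf10. The replicates of neighbouring sources overlapped for Klf10, Junb and Fosb between embryo and cerebellum and for Myc between MEFs and embryos. These sources also differ in strain, age and batch, which cannot be told apart from tissue, and in bulk samples fewer cells of a type cannot be told apart from less RNA in each cell.

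**Figure D1:**
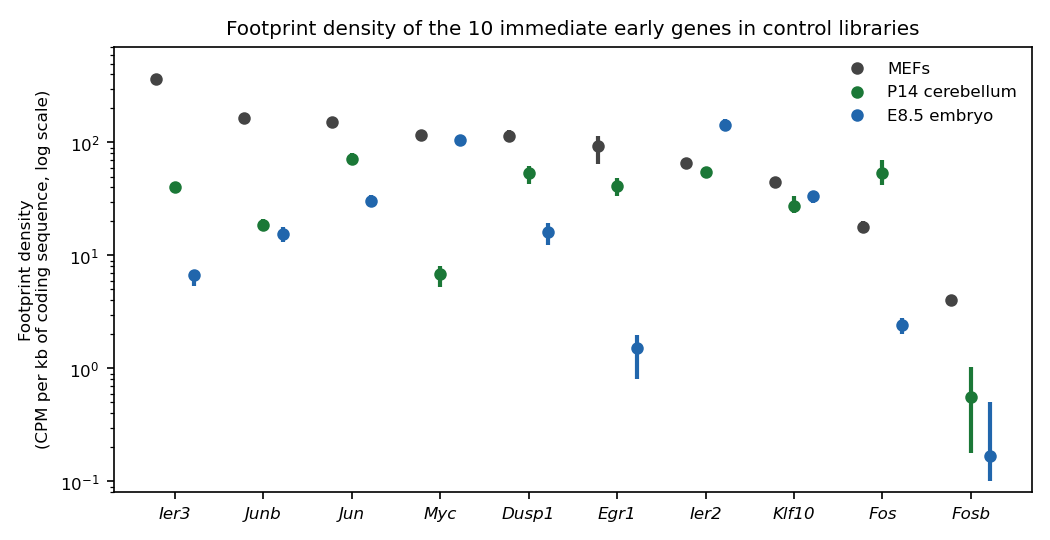
Footprint level of each member in CPM per kilobase of coding sequence on a log axis, for wildtype embryos, control cerebella and control MEFs, with points at the mean and bars from the lowest to the highest of 3 replicates (the bar of Fosb in embryos is cut at the axis, since its lowest value is 0). Ier3 and Egr1 spread most between sources (54 and 60.8 times from lowest to highest), and Klf10 least (1.63 times).

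Set against mRNA, the members carried many footprints in control MEFs. Footprint density divided by TPM lay above the median of 10610 genes for all 10 members, with the A-run transcript left out of the TPM. Jun exceeded the median by 1.83 on the log2 scale, above 95.9% of genes, Egr1 by 1.71, and Klf10 and Fos by 1.42 each. Ier2 was closest to the median, at 0.37 above it. These ratios describe control MEFs, carry no test, and combine RNA and footprints from separate libraries and counting methods.

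In the MEF comparisons, footprints show whether the amount of ribosomes on each member differed between mutant libraries, or those labelled Upf2, and controls. Counts per gene do not separate translating from paused ribosomes. Of the 10 members, 5 changed in Hbs1l-/- MEFs, 3 higher and 2 lower, where 34.1% of all genes were called (17.4% higher and 16.7% lower). There were 6 changed members in Pelo-/- MEFs, 5 higher and 1 lower, with 44.1% of all genes called (22.9% and 21.2%). Among the libraries labelled Upf2 5 changed, 2 higher and 3 lower, with 43.4% called (22.3% and 21.1%). These shares stand near or little above those of all genes, so the counts as such say little about immediate early genes as a class. The direction of single members, and where the mutants differed, is described by role.

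Klf10, a repressor of growth induced by TGF-β, rose in all 3 comparisons. Its footprints were 107, 105 and 108 CPM in Hbs1l-/- MEFs against 78.9, 78.5 and 78.2 in their controls, a log2 fold change of 0.45 (SE 0.07, adjusted p = 2.0e-04). Pelo-/- MEFs had 121, 117 and 102 CPM against 80.1, 76.5 and 74.3 (0.56, SE 0.08, adjusted p = 3.0e-04), and the libraries labelled Upf2 had 119, 122 and 129.7 CPM against 80.7, 81.6 and 76.1 (0.64, SE 0.07, adjusted p = 3.2e-05). No mutant library overlapped a control library. Dusp1, which dephosphorylates ERK, p38 and JNK, fell in the same 3 comparisons. It had 115, 104 and 106 CPM in Hbs1l-/- MEFs against 128, 156 and 125 (log2 fold change -0.33, adjusted p = 0.0098). The fall was to 82.6, 89.4 and 59.8 CPM in Pelo-/- MEFs against 128, 162 and 125 (-0.84, SE 0.15, adjusted p = 0.0011), and to 91.8, 93.1 and 113 CPM in the libraries labelled Upf2 against 132, 161 and 133 (-0.52, SE 0.10, adjusted p = 0.0016). All mutant libraries lay below all controls of their batch.

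Among the AP-1 subunits the Jun members moved and the Fos members did not pass the test. Jun rose in Hbs1l-/- MEFs to 218, 193 and 199.6 CPM from 156, 142 and 163 (0.41, SE 0.07, adjusted p = 8.3e-04) and in Pelo-/- MEFs to 256, 259 and 226 CPM from 154, 145 and 163 (0.68, SE 0.08, adjusted p = 7.7e-05). The libraries labelled Upf2, at 179, 182 and 164 CPM, overlapped their controls for Jun (0.15, adjusted p = 0.088). Junb went in opposite directions: it rose to 269, 267 and 245 CPM in Pelo-/- MEFs from 166, 172 and 170.1 (0.62, SE 0.06, adjusted p = 4.3e-05) and fell to 118, 132 and 145 CPM in the libraries labelled Upf2 from 174, 184 and 172 (-0.42, SE 0.08, adjusted p = 0.0011). In Hbs1l-/- MEFs Junb overlapped its controls (-0.14, adjusted p = 0.15). Fos had 13.9 to 25.3 CPM over all mutant MEF libraries and 17.6 to 24.5 CPM over controls, with log2 fold changes of 0.02 in Hbs1l-/-, -0.31 in Pelo-/- and -0.18 in libraries labelled Upf2 (adjusted p = 0.94, 0.10 and 0.23). Fosb, a close relative of Fos, had few footprints, 2.03 to 5.34 CPM, and no change passed the test.

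Myc rose in Hbs1l-/- MEFs to 186, 186 and 185 CPM from 161, 156 and 167 (0.20, SE 0.06, adjusted p = 0.022) and in Pelo-/- MEFs to 225, 244 and 222 CPM from 165, 151 and 156 (0.55, SE 0.07, adjusted p = 1.3e-04). The call in Hbs1l-/- MEFs was lost when Hbs1l replicate 1 or control replicate 1 or 2 was left out. In the libraries labelled Upf2 Myc had 166, 159 and 162 CPM against 171, 152 and 160.5 in controls (0.01, adjusted p = 0.90). Egr1 varied between replicates more than between groups, with 132 to 206 CPM in mutants and 103 to 187 CPM in controls, and its log2 fold changes of 0.12, 0.05 and 0.05 did not pass the test.

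The 2 Ier genes diverged. Ier3, whose mRNA carries 5 ATTTA copies, fell in Hbs1l-/- MEFs to 116, 104 and 128 CPM from 163, 196 and 159 (-0.56, SE 0.09, adjusted p = 4.2e-04) and in the libraries labelled Upf2 to 62.8, 73.9 and 87.5 CPM from 166, 206 and 169.9 (-1.27, SE 0.12, adjusted p = 1.4e-05). In Pelo-/- MEFs it had 201, 203 and 135 CPM against 164, 201 and 170.0 in controls and overlapped them (0.00, SE 0.14). Ier2 rose in the libraries labelled Upf2 to 56.5, 60.4 and 61.6 CPM from 46.3, 42.1 and 42.2 (0.45, SE 0.08, adjusted p = 6.0e-04). In Pelo-/- MEFs Ier2 reached 48.6, 55.1 and 48.8 CPM against 45.7, 41.2 and 43.1 (0.23, adjusted p = 0.043), a call that was lost when any of 5 of the 6 libraries was left out, all but Pelo replicate 3. Over all alternatives run, those included, 4 of 11 called it. Ier2 had 40.8 to 54.8 CPM in Hbs1l-/- MEFs, overlapping its controls (0.08, adjusted p = 0.58).

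**Figure D2:**
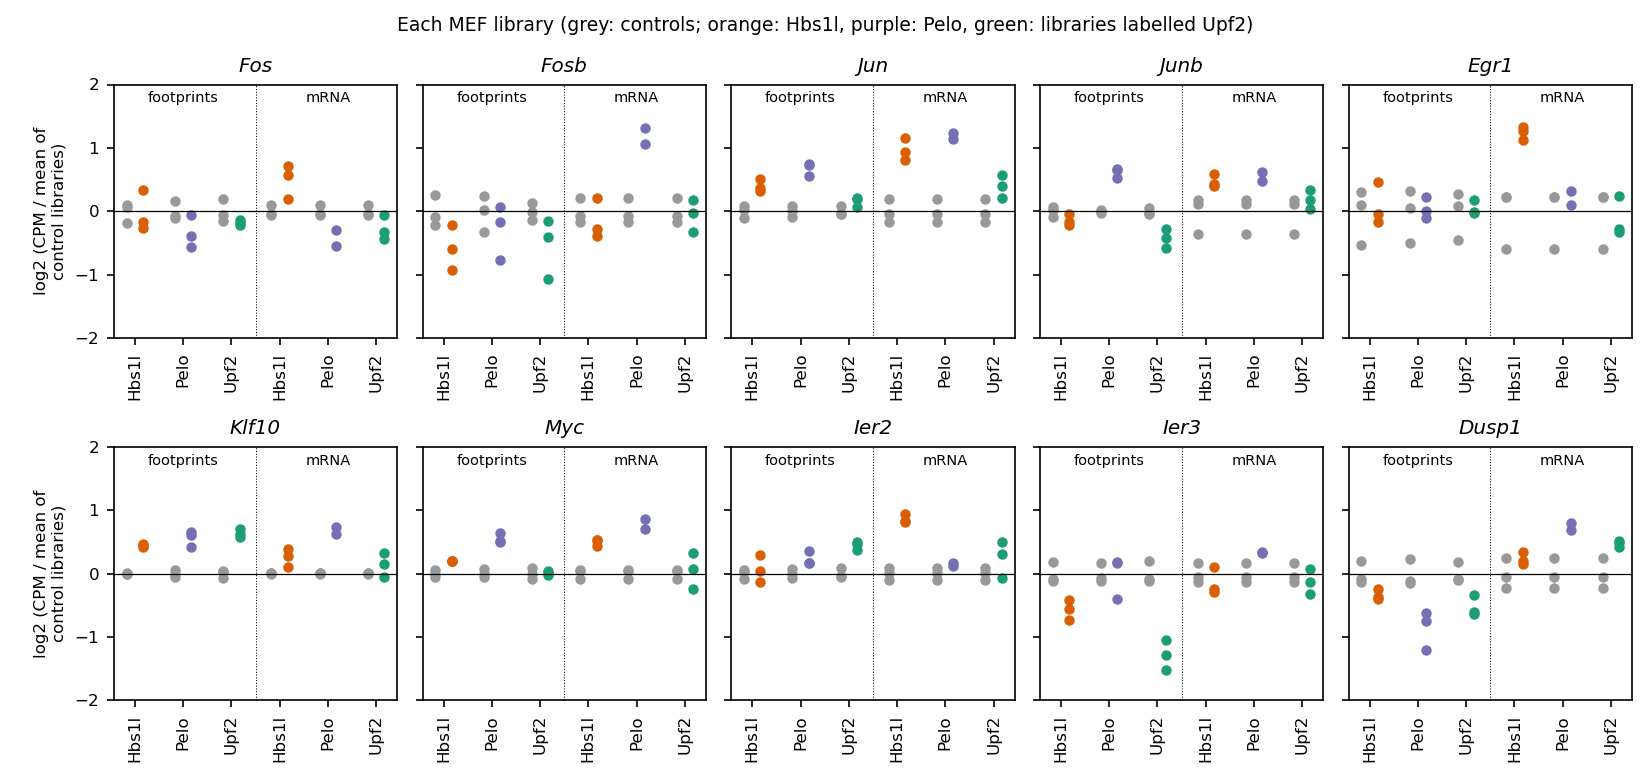
Footprints and mRNA of each member in every MEF library, as log2 of CPM over the mean of the control libraries of the comparison (grey), with Klf10 mRNA taken without the A-run transcript. Klf10 footprints sit above and Dusp1 footprints below the controls in all 3 comparisons, and Junb footprints lie above the controls in Pelo-/- MEFs (245 to 269 against 166 to 172 CPM) and below them in the libraries labelled Upf2 (118 to 145 against 172 to 184 CPM).

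Heat shock and dissociation genes, and markers of immune, endothelial and fibroblast cells, moved along with these comparisons. The summed footprints of 6 heat shock genes were 922 to 973 CPM in Hbs1l-/-, 919 to 966 in Pelo-/- and 881 to 952 in libraries labelled Upf2, against 784 to 806 CPM in controls. Of the 6, 3, 3 and 2 were called higher in this order, and 1, Hspb1, fell in each (-1.14, -1.19 and -1.24). Of 5 immune cell markers, 4, 5 and 3 rose in the same order, with summed levels of 166 to 214, 315 to 456 and 123 to 155 CPM against 89.8 to 130 CPM in controls. The mean of each of the 5 was above 1 CPM in every group, from 4.21 CPM for Ptprc in one set of controls to 221 CPM for Lyz2 in Pelo-/- MEFs. The 4 endothelial markers summed to 37.5 to 42.3, 23.2 to 30.9 and 50.9 to 58.9 CPM in the same order against 67.7 to 82 CPM in controls, with 2, 2 and 1 called lower and 0, 1 and 0 higher, and 1 to 2 of them had a mean under 1 CPM in these groups. Of 8 fibroblast markers 6, 5 and 5 rose and 1, 1 and 2 fell, and they summed to 45928 to 48893, 45398 to 49167 and 48768 to 52101 CPM against 43506 to 46020 CPM. Granule neuron markers were at low levels, 5 of 7 under 1 CPM, and summed to 21.6 to 23.8, 14.6 to 18.9 and 23 to 36.8 CPM against 33.4 to 47.8 CPM, with 2, 2 and 1 of 2 tested called lower, among them Zic1 (-0.86, -1.20 and -0.71). The 1 Purkinje cell marker tested was called lower in Hbs1l-/- and Pelo-/- MEFs, and 1 E8.5 embryo marker was called higher in Pelo-/- MEFs. The part of these genes in the changes of the members was not tested.

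At the mRNA level most members were higher in Hbs1l-/- and Pelo-/- MEFs. Of 10 members, 7 changed in Hbs1l-/- MEFs, 6 higher and 1 lower, where 23.1% of all genes were called (12.7% higher and 10.4% lower). As many changed in Pelo-/- MEFs, 6 higher and 1 lower, with 32.1% called (15.5% and 16.6%). Among the libraries labelled Upf2 2 changed, 1 in each direction, with 20% called (13.2% and 6.76%). The lower member in Hbs1l-/- MEFs and in the libraries labelled Upf2 was Klf10, whose direction turned without the A-run transcript. The counts fell to 4 without Hbs1l replicate 2, to 4 and 3 without Pelo replicates 1 and 2 and to 4 in Pelo-/- MEFs with a replicate block. For the libraries labelled Upf2 the count was 4 without Upf2 replicate 1, 1 without Upf2 replicate 3 and 0 without Upf2 replicate 2 or control replicate 2 or 3. The median log2 fold change over the members was 0.48, 0.41 and 0.02 in this order, and it was -0.01, -0.01 and -0.02 over all genes tested. Jun, Junb and Myc rose in both Hbs1l-/- and Pelo-/- MEFs, beside the same control libraries. Jun had 165, 146 and 132 CPM in Hbs1l-/- and 161 and 169.9 CPM in Pelo-/- MEFs against 72.5, 86.1 and 66.6 CPM in controls, log2 fold changes of 0.97 (SE 0.12, adjusted p = 0.0016) and 1.16 (SE 0.12, adjusted p = 0.0012). The mRNA of Myc was at 95.9, 92.6 and 98.2 CPM in Hbs1l-/- and 108 and 118 CPM in Pelo-/- MEFs against 63.2, 70.7 and 69.6 CPM (0.49, adjusted p = 0.0049, and 0.75, adjusted p = 0.0020). Junb rose by 0.48 (adjusted p = 0.038) and 0.52 (adjusted p = 0.041), to 119.5 to 136 CPM in both mutants from 70.4 to 102 CPM. The call of Junb was lost in Hbs1l-/- MEFs when any library but control replicate 1 was left out, and in Pelo-/- MEFs without Pelo replicate 1 or 2.

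Other members rose in Hbs1l-/- or in Pelo-/- MEFs, but were not called higher in both. Egr1 mRNA was 112, 121 and 103 CPM in Hbs1l-/- MEFs against 31.1, 55.6 and 55.1 CPM in controls (1.24, SE 0.19, adjusted p = 0.0035), and 49.4 and 56.5 CPM in Pelo-/- MEFs (0.17, adjusted p = 0.63). Ier2 mRNA followed the same order, at 79.6, 75.8 and 74.4 CPM in Hbs1l-/-, 44.8 and 45.4 CPM in Pelo-/- and 44.5, 42.7 and 39.2 CPM in control MEFs (0.86, adjusted p = 9.2e-04, and 0.11, adjusted p = 0.36). Fosb mRNA rose in Pelo-/- MEFs, to 9.43 and 11 CPM from 4.38, 5.36 and 4.13 (1.16, SE 0.16, adjusted p = 0.0029), and had 3.48, 3.85 and 5.37 CPM in Hbs1l-/- MEFs. Dusp1 mRNA also rose in Pelo-/- MEFs, to 82.5 and 87.9 CPM from 62.3, 50.9 and 45 (0.71, SE 0.13, adjusted p = 0.0077), a call lost without Pelo replicate 2 (adjusted p = 0.068). Fos mRNA was higher in Hbs1l-/- MEFs, at 9.99, 11.3 and 7.84 CPM against 6.63, 6.57 and 7.34 (0.50, adjusted p = 0.048), and lower in Pelo-/- MEFs, at 4.58 and 5.33 CPM (-0.46, adjusted p = 0.041). Both calls of Fos rest on most single libraries, since the former was lost without any library but Hbs1l replicate 3 and the latter without any but control replicate 1. Ier3 mRNA rose by 0.30 in Pelo-/- MEFs (adjusted p = 0.038), likewise lost without any library but control replicate 1, and did not pass the test in Hbs1l-/- MEFs (-0.13, adjusted p = 0.47). In the libraries labelled Upf2 Dusp1 rose, at 71.1, 76.1 and 74.1 CPM (0.47, adjusted p = 0.027), lost without Upf2 replicate 2 or control replicate 2 or 3. Jun had 86.9, 113 and 99.2 CPM there, all above its 3 controls (0.40, SE 0.13, adjusted p = 0.055), and 6 of 14 alternatives called it, with adjusted p from 0.011 to 0.23. Heat shock genes were also higher at the mRNA level in Hbs1l-/- MEFs, with 4 of 6 called and a sum of 4675 to 5070 CPM, against 3889 to 4071 in Pelo-/- MEFs, with 0 called, 3868 to 4454 in the libraries labelled Upf2, with Hspa1b (0.95) and Hspa1a (0.63) called higher, and 3888 to 3981 in controls. The 5 immune markers summed to 135 to 183, 105 to 150 and 67.4 to 131 CPM in the same order of mutants and to 71.7 to 107 CPM in controls, with 3, 1 and 0 of them called. Endothelial markers summed to 15.4 to 17.2, 34 to 40.5 and 20.8 to 28.5 CPM against 28.4 to 37.2 CPM, with 2 of 3 tested called lower in Hbs1l-/-, 1 higher in Pelo-/- and 1 lower in the libraries labelled Upf2. Fibroblast markers summed to 13194 to 17995, 20288 to 20722 and 11407 to 12375 CPM against 11185 to 15236 CPM, with 4, 2 and 0 of 8 called higher and 1, 0 and 1 lower. Of 3 granule neuron markers tested 1, 1 and 0 were called higher and 2, 0 and 0 lower, and 1 Purkinje cell marker was lower in Hbs1l-/-. The part of these genes in the mRNA levels was not tested.

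The result for Klf10 turns on 1 transcript. With all transcripts, its estimated counts fell in Hbs1l-/- MEFs (-0.71, SE 0.16, adjusted p = 0.014) and in the libraries labelled Upf2 (-0.94, SE 0.26, adjusted p = 0.028), and had a log2 fold change of -0.37 in Pelo-/- MEFs (adjusted p = 0.19). The former call was lost without Hbs1l replicate 2, and the latter without Upf2 replicate 2 or 3 or control replicate 2 or 3. Without the A-run transcript the direction turned. Klf10 mRNA was then 28.4, 30.6 and 25.1 CPM in Hbs1l-/- MEFs, 35.8 and 38.7 CPM in Pelo-/- MEFs, 26, 29.3 and 22.4 CPM in the libraries labelled Upf2 and 23.3, 23.4 and 23.2 CPM in controls. The log2 fold changes were 0.26 (SE 0.11, adjusted p = 0.11), 0.64 (SE 0.09, adjusted p = 0.0030) and 0.15 (SE 0.13, adjusted p = 0.45). The A-run transcript alone, tested among transcripts, had -0.71, -0.39 and -1.01 (adjusted p = 0.11, 0.41 and 0.13). Tests per transcript called Jun-201 (0.98, adjusted p = 0.042) and Ier2-201 (0.87, adjusted p = 0.038) in Hbs1l-/- MEFs, where 1.31% of all transcripts tested changed. In Pelo-/- MEFs, with 2.37% called, they named Jun-201 (1.14, adjusted p = 0.035) and the pair Myc-201 and Myc-205, which had identical values (0.80, adjusted p = 0.037). No member transcript was called in the libraries labelled Upf2, where 5.35% of transcripts were. The transcript calls were lost in Hbs1l-/- and Pelo-/- MEFs when any single library was left out.

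**Figure D3:**
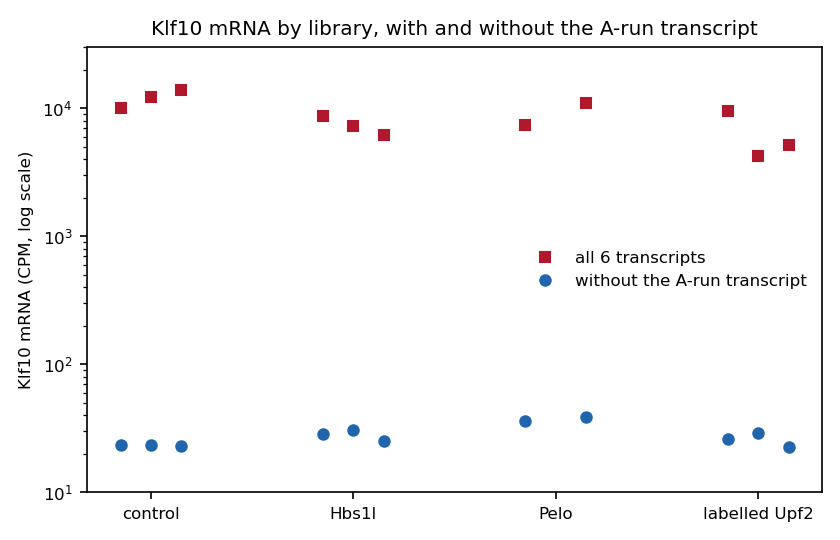
Estimated RNA counts of Klf10 in CPM on a log axis in every RNA library, over all transcripts and without the A-run transcript. With all transcripts the controls lie at 10080 to 13770 CPM, above 7 of 8 mutant libraries, and without it they lie at 23.2 to 23.4 CPM, below 7 of 8.

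mRNA and footprints were then compared in 1 model per mutant, whose interaction term is the change in footprints beyond the change in mRNA, here called the change in translational efficiency (TE). RNA and footprints came from separate dishes of cells, and the RNA libraries formed a batch of their own. For Dusp1 in Pelo-/- MEFs, mRNA rose by 0.71 while footprints fell by 0.84, a TE change of -1.54 (SE 0.23, adjusted p = 1.5e-04). In the libraries labelled Upf2 the TE change of Dusp1 was -1.01 (SE 0.18, adjusted p = 0.0019), and in Hbs1l-/- MEFs it was -0.55 (SE 0.17, adjusted p = 0.15). Both calls of Dusp1 were kept in every alternative that was run.

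The TE of Fosb fell in Pelo-/- MEFs by 1.43 (SE 0.31, adjusted p = 0.0023), since its mRNA rose and its footprints did not pass the test. Jun had risen at both levels there, less in footprints, and its TE changed by -0.46 (SE 0.15, adjusted p = 0.023), lost without control RNA replicate 3, Pelo RNA replicate 2 or control footprint replicate 3. Over all alternatives run, those included, 13 of 17 called it. In the libraries labelled Upf2 the TE of Ier3 fell by 1.18 (SE 0.19, adjusted p = 0.0011), with footprints down by 1.27 and mRNA at -0.11, and that of Junb by 0.63 (SE 0.19, adjusted p = 0.026). The latter was lost without Upf2 footprint replicate 1 or 2, control footprint replicate 2 or control RNA replicate 3. Called members were thus 4 of 10 in Pelo-/- MEFs, where 44.6% of all genes were called, and 4 of 10 in the libraries labelled Upf2, where 20.3% were. In each case 3 were lower and 1, Klf10, was higher. Of all genes 20.4% were lower and 24.3% higher in Pelo-/- MEFs, and 11.8% and 8.47% in the libraries labelled Upf2. In TE, 5 of 5 immune markers were higher in Pelo-/- MEFs (median 1.37) and 2 of 5 in the libraries labelled Upf2 (median 0.59). Of 2 endothelial markers tested, 2 and 1 were lower in the same order (medians -3.09 and -1.17), and of 8 fibroblast markers 2 and 4 were higher and 1 and 0 lower (medians 0.07 and 0.51). In Pelo-/- MEFs 2 of 2 granule neuron markers tested and 1 of 1 Purkinje cell marker were lower as well. Of 6 heat shock genes 2 and 0 were higher in the same order, and 1, Hspb1, was lower in each (-1.44 and -1.47). Their part in the TE of the members was not tested.

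In Hbs1l-/- MEFs the same 9 members other than Klf10 had TE changes below 0, from -0.27 for Myc to -1.10 for Egr1, and none of the 9 passed the test, while 8 of the 10 members, and 17.3% of all genes tested, had an unadjusted p under 0.05. That fit called 4 of 11907 genes, or 0.0336%, by edgeR, with Klf10 among them (1.18, adjusted p = 0.047, lost without any of 9 of 12 libraries, all but control RNA replicate 1 and Hbs1l RNA replicates 1 and 3). DESeq2 called 334 genes in the same comparison, 4 of them members. The TE change of Klf10 depended on the A-run transcript. Without that transcript its TE change was 0.20 (adjusted p = 0.41) in Hbs1l-/- MEFs, -0.06 (adjusted p = 0.69) in Pelo-/- MEFs and 0.47 (SE 0.14, adjusted p = 0.027) in the libraries labelled Upf2.

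**Figure D4:**
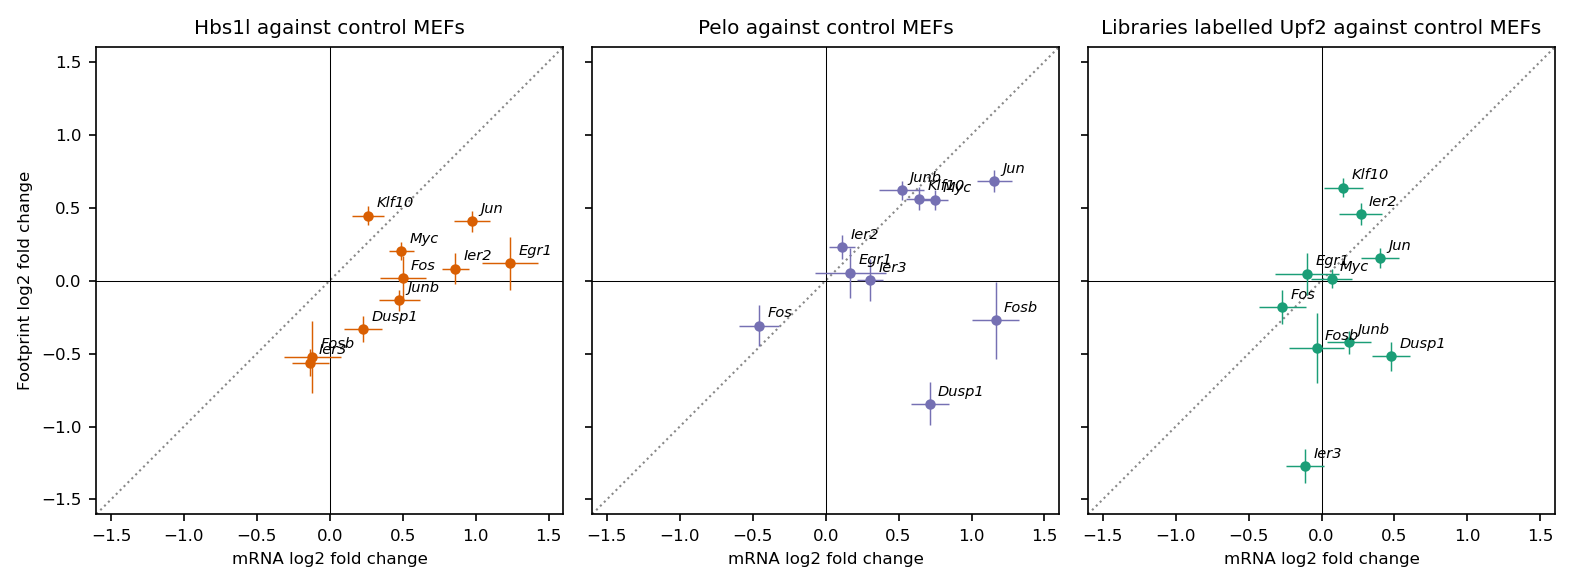
Log2 fold change of footprints against that of mRNA for each member in the 3 MEF comparisons, with bars for standard errors, a diagonal of equal change and Klf10 mRNA taken without the A-run transcript. Dusp1 lies below the diagonal in Pelo-/- MEFs (0.71 in mRNA and -0.84 in footprints), and Egr1 lies to the right of it in Hbs1l-/- MEFs (1.24 and 0.12).

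Differences between mutants were tested directly. For footprints the test was the difference of 2 mutant effects, each against its own batch of controls, and it called 2 members between Pelo-/- and Hbs1l-/- (5.55% of genes called, 3.45% higher in Pelo-/-), 4 between Pelo-/- and the libraries labelled Upf2 (13% called, 6.82% higher in Pelo-/-) and 1 between the latter and Hbs1l-/- (4.93%). Control libraries of the same number in 2 batches entered as separate libraries, although they share their material, so the fit counts more controls than there were distinct samples. With same-numbered controls summed, an alternative chosen after the data were seen, the controls cancel and mutants of different batches are set against each other. The 7 calls remained in that fit, which called 5, 4 and 6 members in the same order. It also called many more of all genes, 2276, 3652 and 2048 against 695, 1648 and 608, so keeping the 7 calls there is a weak check. Junb separated Pelo-/- MEFs from both. Its change was higher by 0.76 than in Hbs1l-/- MEFs (SE 0.09, adjusted p = 2.4e-04) and by 1.04 than in the libraries labelled Upf2 (SE 0.10, adjusted p = 2.2e-05). Myc did the same by 0.35 (adjusted p = 0.022) and 0.54 (adjusted p = 0.0012), the former lost without Hbs1l replicate 3, control replicate 1 or 3 of its batch or control replicate 2 or 3 of the Pelo batch. Ier3 was higher in Pelo-/- than in the libraries labelled Upf2 by 1.28 (SE 0.22, adjusted p = 0.0017), and Jun by 0.53 (SE 0.10, adjusted p = 0.0039). The change of Ier3 in the libraries labelled Upf2 lay 0.71 below that in Hbs1l-/- MEFs (adjusted p = 0.022), lost without Upf2 replicate 1 or 2, Hbs1l replicate 3 or control replicate 1 of the Hbs1l batch. For Dusp1, the difference of -0.51 between Pelo-/- and Hbs1l-/- MEFs did not pass the test (SE 0.19, adjusted p = 0.15), and it passed with the controls summed (-0.49, adjusted p = 0.025). Markers differed in the same tests. Against Hbs1l-/-, 2 of 5 immune markers were higher and 2 of 3 endothelial markers lower in Pelo-/- MEFs (medians 0.90 and -0.81). Against the libraries labelled Upf2 these were 4 of 5 and 2 of 3 (medians 1.39 and -1.32). Of 8 fibroblast markers 2 were higher and 1 lower in that comparison. The part of these genes in the differences was not tested.

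For mRNA the mutants were set against each other without controls. Between Pelo-/- and Hbs1l-/- MEFs 7 members differed, with 35.2% of genes called. Egr1 was lower in Pelo-/- by 1.02 (SE 0.11, adjusted p = 5.5e-04), Fos by 0.92 (adjusted p = 0.0092) and Ier2 by 0.71 (adjusted p = 0.0010), while Fosb was higher by 1.32 (SE 0.20, adjusted p = 0.0023). Dusp1, Ier3 and Myc were higher by 0.52, 0.48 and 0.30 (adjusted p = 0.0043, 0.020 and 0.025). Jun and Junb mRNA did not pass this test (0.23 and 0.09, adjusted p = 0.14 and 0.50). Between Pelo-/- MEFs and the libraries labelled Upf2, 5 members differed, all higher in Pelo-/-: Fosb by 1.23, Jun by 0.79, Myc by 0.71, Ier3 by 0.44 and Junb by 0.36 (28.9% of genes called, 13.5% higher in Pelo-/-). Between the libraries labelled Upf2 and Hbs1l-/- MEFs, 4 members differed, all lower in the former: Egr1 by 1.33, Fos by 0.76, Ier2 by 0.58 and Jun by 0.56 (27.1% called, 11.1% lower in the former). Leaving out Pelo replicate 1 or 2 or Hbs1l replicate 2 ended the calls of Ier3 and Myc between Pelo-/- and Hbs1l-/- MEFs, and leaving out replicate 1 or 2 of either group ended those of Ier3 and Junb between Pelo-/- MEFs and the libraries labelled Upf2. Single libraries also carried the calls of Fos in both comparisons with Hbs1l-/- MEFs, lost without Pelo replicate 1 in the former and without Upf2 replicate 1 or Hbs1l replicate 2 in the latter. The calls of Dusp1 against Hbs1l-/- and of Myc against the libraries labelled Upf2 were lost without Pelo replicate 2. Markers differed in these tests too. Of 6 heat shock genes 4 were lower and 1 higher in Pelo-/- than in Hbs1l-/- MEFs, and 2 of 3 endothelial markers were higher. Of 8 fibroblast markers 6 were higher in Pelo-/- than in the libraries labelled Upf2 (median 0.60). In the latter 6 were lower and 1 higher than in Hbs1l-/- MEFs (median -0.76). Of 5 immune markers 4 were lower there (median -1.08). Their part was not tested.

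Hbs1l was also deleted in embryos and in cerebellum, and footprints there ask whether the members change in tissue. In E8.5 embryos no member passed the test among 9 tested, with 1.87% of genes called, and Fosb had too few counts, 0 to 2 per library. At an unadjusted p under 0.05 stood Ier3 alone of the 9, and 18.6% of all genes tested. It had 15, 4.53 and 16 CPM in Hbs1l -/- embryos against 3.56, 2.54 and 3.54 CPM in wildtype, from 18 to 106 counts and 9 to 10 counts, a log2 fold change of 1.89 (SE 0.48, adjusted p = 0.064). All mutant libraries lay above all wildtype libraries, as they did for 11.4% of genes. DESeq2, a block on replicate number and a fit without the filter on low counts each called Ier3 (adjusted p = 0.018, 0.032 and 0.0055). Its change in embryos exceeded that in cerebellum by 2.26 (SE 0.50, adjusted p = 0.049, 0.732% of genes called), lost without any of 9 of 12 libraries (all but embryo Hbs1l replicates 1 and 2 and control cerebellum replicate 3), and that in MEFs by 2.50 (SE 0.44, adjusted p = 0.0037, 7.46% called). Markers of the E8.5 embryo differed between the same libraries: 6 of them summed to 3284 to 8190 CPM in Hbs1l -/- embryos and to 13175 to 17167 CPM in wildtype, with 2 of 6, the embryonic globins Hbb-y and Hba-x, lower by the test, and 1 of 4 endothelial markers, Pecam1, higher. Of 8 fibroblast markers 2, Col3a1 (-1.35) and Col1a1 (-0.88), were lower, with sums of 2162 to 2667 CPM against 2693 to 3508 CPM. The 6 heat shock genes summed to 906 to 1239 CPM in Hbs1l -/- and to 1292 to 1545 CPM in wildtype embryos, with 1 of 4 tested, Hspa8 (-0.84), called lower. The 4 endothelial markers summed to 431 to 640 CPM in Hbs1l -/- and to 367 to 382 CPM in wildtype embryos. The part of these genes in the level of Ier3 was not tested. The other embryonic members overlapped between groups, Klf10 at 61.3 to 77.5 against 50.5 to 64.8 CPM and Myc at 121 to 203 against 133 to 149.7 CPM.

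In the cerebellum 6 of 10 members, Fos, Junb, Dusp1, Egr1, Ier2 and Ier3, were lower in every cKO library than in every control library, which held for 8.91% of all genes, and none was called by edgeR, where 0.0624% of genes were. Fos had 45.7, 33.5 and 28.2 CPM in cKO against 50.9, 83 and 57.4 CPM in control cerebella (-0.83, SE 0.23, adjusted p = 0.17). Junb had 11.9, 14 and 13.1 CPM against 18.6, 22.7 and 18.3 (-0.61, SE 0.15, adjusted p = 0.14), and Dusp1 had 45.5, 46.9 and 41.4 CPM against 54.6, 76.8 and 69.4 (-0.59, SE 0.14, adjusted p = 0.15). DESeq2 called these 3, and it called 484 genes where edgeR called 9. Egr1 (-0.47, adjusted p = 0.23), Ier2 (-0.43, adjusted p = 0.22) and Ier3 (-0.35, adjusted p = 0.31) were called by neither. At an unadjusted p under 0.05 stood 7 members in edgeR's test, the 6 named and Myc at 0.53 (adjusted p = 0.37), and 13.4% of all genes tested. Klf10, Jun, Fosb and Myc overlapped their controls. The summed level of 3 Purkinje cell markers was 3562 to 3959 CPM in cKO and 4669 to 6641 CPM in control cerebella, that of 5 immune markers 157 to 175 against 121 to 145 CPM, and that of 6 E8.5 embryo markers 48.9 to 65.3 against 35.9 to 42.7 CPM, 5 of them under 1 CPM. The sums did not overlap, while 0 of 3, 0 of 5 and 0 of 1 single markers tested passed, and their part in the lower levels was not tested.

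Other genes of the early response were read from lists of related genes, chosen with earlier results of these data known, and their counts are read against the share of all genes called. That share was 23.1%, 32.1% and 20% in mRNA and 34.1%, 44.1% and 43.4% in footprints of Hbs1l-/-, Pelo-/- and libraries labelled Upf2. Of 10 other AP-1 and ATF genes, 4 rose and 2 fell at the mRNA level in Hbs1l-/- MEFs, 4 rose in Pelo-/- MEFs and 2 rose in the libraries labelled Upf2, or 60%, 40% and 20% called. Atf3, a stress-induced partner of AP-1, rose by 0.67, 1.24 and 1.90 in Hbs1l-/-, Pelo-/- and libraries labelled Upf2 (adjusted p = 0.0080, 9.7e-04 and 2.9e-05). Maff, a small MAF factor, fell in footprints in all 3 comparisons, by 0.69, 0.52 and 0.58, and the AP-1 subunit Fosl1 rose in footprints by 0.52 in Hbs1l-/- and 1.03 in Pelo-/- MEFs. Of 20 other early transcription factors tested, 10 rose and 1 fell in mRNA in Pelo-/- MEFs, or 55% called, against 30% in each of the other comparisons. Cebpb, a C/EBP factor of inflammation, rose in footprints by 0.71, 2.26 and 0.94, and Cebpd by 1.54 in Pelo-/- MEFs. In Hbs1l -/- embryos 2 of 16 such factors passed the test, where 1.87% of all genes did, Bhlhe40 higher by 2.53 (adjusted p = 0.042) and Id3 lower by 0.88 (adjusted p = 0.027), and in the cerebellum no gene of any of these lists did.

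Feedback inhibitors, the list whose genes act most like Dusp1, were compared at both levels in Pelo-/- MEFs. Of 22 such genes 16 rose and none fell in mRNA (median 0.68, 72.7% called), while 8 rose and 3 fell in footprints (median 0.06, 50% called). In Hbs1l-/- MEFs and the libraries labelled Upf2 50% and 18.2% were called in mRNA. In footprints 5 rose and 7 fell in Hbs1l-/- MEFs (54.5% called), and 6 rose and 9 fell in the libraries labelled Upf2 (68.2% called). TE in Pelo-/- MEFs fell for 10 and rose for 3 (median -0.51, against 0.04 over all genes tested, and 59.1% called, against 44.6%). Other lists also had TE medians below 0 there, at -0.59 for AP-1 and ATF genes, -0.42 for early transcription factors and -0.37 for secreted and effector genes. Dusp5, a nuclear ERK phosphatase, rose by 1.22 in mRNA and its TE fell by 1.62 (adjusted p = 4.9e-05). Dusp4, a related phosphatase, fell by 0.72 and 0.70 in footprints in Hbs1l-/- and Pelo-/- MEFs, and its TE fell by 1.63 in the latter. Nfkbia, the inhibitor of NF-κB, stood opposite, with footprints higher (adjusted p = 1.6e-07) and TE up by 2.24 in Pelo-/- MEFs. In the libraries labelled Upf2, TE fell for 10 of 22 feedback inhibitors and rose for none (median -0.44, 45.5% called against 20.3% of all genes), with Tnfaip3 at -1.51 and Spry4 at -1.11.

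Of 23 early secreted and effector genes 12 rose and 4 fell in mRNA in Pelo-/- MEFs, or 69.6% called. In Hbs1l-/- MEFs 6 rose and 1 fell (30.4% called), and in the libraries labelled Upf2 1 rose (4.35%). The chemokine gene Ccl2 rose in footprints by 3.72 in Pelo-/- MEFs while its mRNA fell by 1.21, and in Hbs1l-/- MEFs it rose by 0.79 in footprints and 0.66 in mRNA. Of the other chemokine genes named by the rule, Cxcl1 rose in footprints by 5.63 and Ccl7 mRNA fell by 1.53 in Pelo-/- MEFs. Of 5 immune cell markers 5 were higher in footprints and 5 in TE there (medians 1.64 and 1.37), and 1 in mRNA (median 0.36). Their part in the chemokine genes was not tested. Hbegf, a growth factor of the EGF family, rose by 1.02 in mRNA and fell by 0.57 in footprints, and Ptgs2, the inducible cyclooxygenase, fell in footprints in all 3 comparisons, by 0.93, 0.76 and 1.27.

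Signalling genes upstream of the members and factors that decay ARE mRNAs were listed as well. Of 24 genes of SRF cofactors and MAP kinase signalling, 4 rose and 6 fell in footprints in Hbs1l-/- MEFs, 4 rose and 10 fell in Pelo-/- MEFs, and 4 rose and 9 fell in the libraries labelled Upf2, or 41.7%, 58.3% and 54.2% called. The receptor gene Pdgfra, itself a fibroblast marker, rose by 2.23, 3.39 and 2.08 in this order. Of 13 ARE decay factors, 6 rose and 1 fell in Hbs1l-/-, 4 rose and 2 fell in Pelo-/- MEFs, and 6 rose and 1 fell in the libraries labelled Upf2, or 53.8%, 46.2% and 53.8% called. Exosc3, a subunit of the RNA exosome, rose by 0.46, 0.69 and 0.82, and Hnrnpd, which encodes the ARE-binding protein AUF1, by 0.50 in Hbs1l-/- MEFs and 0.74 in the libraries labelled Upf2. At the mRNA level 4 of 13 decay factors fell and 1 rose in Pelo-/- MEFs, or 38.5% called, with Exosc9 lower by 1.46, and 4 rose in Hbs1l-/- MEFs (30.8%). No gene of either list was called in mRNA of the libraries labelled Upf2, and of the signalling genes 20.8% and 41.7% were called in mRNA of Hbs1l-/- and Pelo-/- MEFs.

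**Figure D5:**
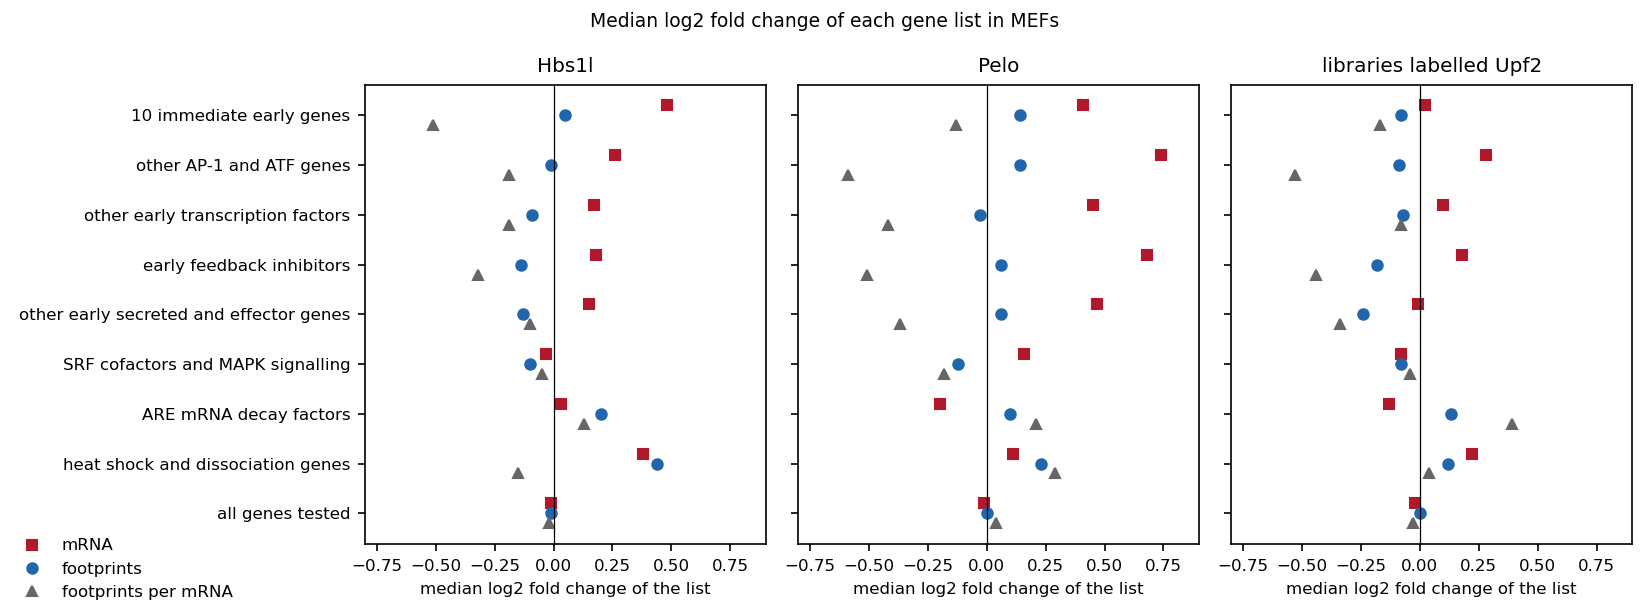
Median log2 fold change of each gene list in the 3 MEF comparisons, for mRNA, footprints and footprints per mRNA. In Pelo-/- MEFs the feedback inhibitors lie at 0.68 in mRNA, 0.06 in footprints and -0.51 in footprints per mRNA, and all genes tested lie within 0.04 of 0.

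The gene whose footprint pattern was most like that of each member was sought over the means of 8 groups of samples, among 11851 genes with a mean of at least 5 CPM. For Jun it was Layn (Pearson's r = 0.995), for Junb Timp1 (0.992), for Fos Stk17b (0.997) and for Fosb Synpo (0.994). Egr1 was most like Tmem63a (0.999), Myc most like Ccdc86 (0.998) and Klf10 most like Oasl1 (0.978). Ier3 paired with Slc6a8 (0.994), Ier2 with Sart1 (0.978) and Dusp1 with Dnajb4 (0.992). These values describe 8 group means in which 4 groups are MEFs and the tissues differ in batch, and no member was the closest match of another.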

How the data were processed

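The authors aligned footprints to mm10 with HISAT2 2.1.0 after removing other RNA with Bowtie2 2.2.3, and the deposited counts are whole footprints per gene over coding sequence (featureCounts, Gencode M24). The deposited MEF RNA files hold, per transcript, the estimated counts and TPM that kallisto 0.42.4 gave (stranded, poly(A)-selected libraries). These versions are taken from the submitters' processing notes and the study's methods. The counts of a gene's transcripts were added up and rounded to whole numbers. Histone genes were left out of footprint and TE fits.

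Each comparison was fitted in R 4.3.3 with edgeR 4.0.16 (TMM factors, filterByExpr, quasi-likelihood test, Benjamini-Hochberg adjustment over all features, threshold 0.05), using only the groups compared, and checked on simulated data. TE and differences between mutants are interaction terms. Alternatives were DESeq2 1.42.0, limma 3.58.1 on log2(TPM + 1), RLE factors, no filter, a replicate block, protein-coding transcripts only, one fit over all RNA libraries, summed control libraries and leaving out each library. Leaving out the A-run transcript of Klf10, and summing same-numbered controls of 2 batches in differences between MEF mutants, were added after the data were seen. The range of depth per kind of library is given in the report, and low counts (Fos, Fosb, Ier3 and Egr1 in embryos) limit precision.

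The members and gene lists were chosen with earlier results of these data known. All members are named. From each list the called genes of largest change in either direction were named if their mean was at least 5 CPM, and the text gives part of them. Gene models came from Gencode M21 (GRCm38).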

Additional observations from a re-analysis of the deposited data

Results flagged for a closer look

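Differences between 2 MEF comparisons, or between 2 sources of Hbs1l deletion, were called for 4 members by the interaction test of edgeR with Benjamini-Hochberg adjustment. Of all genes, 5.55% were called between Pelo-/- and Hbs1l-/- MEFs. The share was 13% between Pelo-/- MEFs and the libraries labelled Upf2, and 4.93% between the latter and Hbs1l-/- MEFs. Between sources it was 0.732% for embryo against cerebellum and 7.46% for embryo against MEFs. In footprints of MEFs, the change of Junb in Pelo-/- exceeded that in Hbs1l-/- by 0.76 (SE 0.09, adjusted p = 2.4e-04) and that in the libraries labelled Upf2 by 1.04 (SE 0.10, adjusted p = 2.2e-05), with all 3 Pelo-/- libraries above and all 3 libraries labelled Upf2 below their controls. The change of Myc in Pelo-/- MEFs exceeded the others by 0.35 (adjusted p = 0.022, lost without any of 5 of 12 libraries) and 0.54 (adjusted p = 0.0012). The change of Jun in Pelo-/- MEFs exceeded that in the libraries labelled Upf2 by 0.53 (adjusted p = 0.0039). Ier3 differed most often. Its change in Pelo-/- MEFs lay 1.28 above that in the libraries labelled Upf2 (adjusted p = 0.0017), and the latter differed from that in Hbs1l-/- MEFs by -0.71 (adjusted p = 0.022, lost without any of 4 of 12 libraries). Between sources of Hbs1l deletion, the change of Ier3 in embryos lay 2.26 above that in cerebellum (adjusted p = 0.049, lost without any of 9 of 12 libraries) and 2.50 above that in MEFs (adjusted p = 0.0037). The comparisons between MEF mutants count same-numbered control libraries of 2 batches separately, although they share their material. With those controls summed, more members differed in footprints of Pelo against Hbs1l and of Upf2 against Hbs1l, with counts given in the section on processing. More of all genes were called there too, 2276 against 695 and 2048 against 608. The embryo libraries hold 9 to 106 footprints of Ier3 each. Markers were also called in the tests of Pelo-/- against Hbs1l-/- MEFs and against the libraries labelled Upf2. Of 5 immune markers 2 and 4 were higher in Pelo-/- in this order, and of 3 endothelial markers tested 2 and 2 were lower. Their part in the differences was not tested.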

How the results depend on the processing

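Of the members, 1 passed the test in embryos, Ier3, with DESeq2, with the replicate block and with no filter on low counts, and 3 passed in cerebellum with DESeq2. In RNA, 4 of 7 calls in Pelo-/- MEFs were left with the replicate block, and in the libraries labelled Upf2 1 was left without the A-run transcript of Klf10 and 0 with limma on TPM. For TE in Hbs1l-/- MEFs there were 4 calls with DESeq2, 2 with the block, 2 with no filter, 0 with protein-coding transcripts only and 0 without the A-run transcript of Klf10, against 1. Member transcripts called were 9 with DESeq2 and 0 with the block in Hbs1l-/- MEFs, against 2, then 6, 0 and, with no filter, 1 in Pelo-/- MEFs, against 3, and 1 with DESeq2 in the libraries labelled Upf2, against 0. Between embryo and cerebellum DESeq2 called 2 members. With the control libraries of 2 batches summed, 5 members differed in footprints of Pelo against Hbs1l, against 2, and 6 of Upf2 against Hbs1l, against 1. The cause was not tested. RLE factors moved no count of member calls by over 1.5 times.

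Leaving out each library in turn gave 0 to 2 member calls in embryos, 0 to 1 in cerebellum, and 4 to 5, 5 to 7 and 5 to 6 in footprints of Hbs1l-/-, Pelo-/- and libraries labelled Upf2. It gave 4 to 6, 3 to 7 and 0 to 4 in RNA, 0 to 2, 3 to 4 and 3 to 4 in TE, and 0 to 0, 0 to 0 and 0 to 1 among transcripts in this order. For differences between mutants it gave 1 to 3 (Pelo against Hbs1l), 4 to 4 (Pelo against Upf2) and 0 to 2 (Upf2 against Hbs1l) in footprints and 4 to 9, 2 to 6 and 3 to 5 in RNA. It gave 0 to 2 between embryo and cerebellum and 1 to 4 between embryo and MEF.

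Directions turned, with all libraries kept, for footprints of Fos in Hbs1l-/- (-0.02 with the block, -0.03 with summed controls), Ier3 in Pelo-/- (-0.01 with the block) and Myc in libraries labelled Upf2 (-0.001 with no filter), RNA of Fosb in the latter (0.01 with no filter and with limma), and Klf10 without its A-run transcript (RNA 0.26, 0.64 and 0.15, and TE -0.06 in Pelo-/-). Without single libraries, footprints ranged in Hbs1l-/- from -0.11 to 0.30 for Egr1, -0.22 to 0.15 for Fos and -0.05 to 0.19 for Ier2, in Pelo-/- from -0.15 to 0.25 for Egr1 and -0.09 to 0.18 for Ier3, in libraries labelled Upf2 from -0.14 to 0.20 for Egr1 and -0.03 to 0.05 for Myc, and in embryos from -0.27 to 0.12 for Dusp1 and -0.14 to 0.25 for Myc. RNA ranged from -0.05 to 0.30 for Egr1 in Pelo-/-, and in libraries labelled Upf2 from -0.32 to 0.02 for Egr1, -0.14 to 0.10 for Fosb and -0.07 to 0.22 for Myc. TE ranged from -0.30 to 0.13 for Egr1 in Pelo-/-, and in libraries labelled Upf2 from -0.05 to 0.34 for Egr1, -0.02 to 0.18 for Fos and -0.22 to 0.06 for Myc.

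Counts over all genes moved too, in embryos (214, against 432 with DESeq2, 564 with the block, 703 with no filter and 28 to 2309 without single libraries, the highest without Hbs1l replicate 1) and in cerebellum (9, against 484, 0 and 16, and 0 to 560). In TE of Hbs1l-/- MEFs they were 4, against 334, 71 and 22, and 1 with protein-coding transcripts only or without the A-run transcript of Klf10. In RNA, limma gave 1571, 1819 and 1405 against 3542, 4727 and 3194, and the block gave 2955 in Pelo-/-. Without single libraries these were 1817 to 2663, 1506 to 4802 (lowest without Pelo replicate 2) and 1800 to 3201, and between mutants 1944 to 6601, 1460 to 5624 (both lowest without Pelo replicate 2) and 2685 to 3771 against 5235, 4482 and 4403. The same ranges were 0 to 67 and 1507 to 2840 in TE of Hbs1l-/- and libraries labelled Upf2, 0 to 0, 0 to 0 and 567 to 1278 among transcripts, 384 to 735, 1097 to 1743 and 353 to 583 for differences of footprints, 8 to 1123 between embryo and cerebellum and 457 to 2757 between embryo and MEF. Transcripts were 481, 826 and 2175, against 3786, 4587 and 5639 with DESeq2 and 0, 0 and 112 with the block, and 265 with no filter in Hbs1l-/-. The block gave 394 against 608 for footprints of Upf2 against Hbs1l and 3030 against 5235 for RNA of Pelo against Hbs1l, and DESeq2 gave 585 against 107 between embryo and cerebellum. Summed controls of 2 batches gave 2276, 3652 and 2048 against 695, 1648 and 608 for footprints of Pelo against Hbs1l, Pelo against Upf2 and Upf2 against Hbs1l. DESeq2 moved the share of higher calls from 88.9% to 58.5% in cerebellum, and among transcripts from 30.5% to 43.5% in Pelo-/- and from 81.6% to 61.6% in libraries labelled Upf2. RLE factors moved it from 50% to 66.7% in TE of Hbs1l-/-.

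The labels link mutant and control libraries of the same number by that number alone, and do not say whether any were paired. Correlations of deviations from group means ran from -0.29 to 0.45 over same-numbered pairs. Every library correlated best with its own number only in embryos (3 of 3, 0.06 to 0.09, against -0.05 to -0.02 for other numbers).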
